A study of Mus musculus with 8 samples.

Results

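Solute carriers are the membrane proteins that move sugars, amino acids, nucleotides, metals and other solutes across the membranes of a cell, and their genes carry the symbol Slc, a family number and a member letter. The 108 RNAs described here were chosen by their level in the germinal vesicle (GV) oocyte: the gene symbol starts with Slc and a digit, and the deposited value is at least 5 TPM (transcripts per 1e6, a share corrected for length) in both GV libraries. They are 108 of the 249 Slc genes listed in all 8 libraries, and of 15962 listed genes in all. Another 26 Slc genes were listed in some of the libraries and were left out, and 1 symbol was dropped as a pseudogene or opposite-strand form. By the compartment in which their proteins are known to work, the members comprise 21 carriers of the mitochondrial Slc25 family (1 of them, Slc25a17, works in the peroxisome and is kept with its family), 44 plasma membrane carriers, 13 carriers of the endoplasmic reticulum (ER) or Golgi, 11 of endosomes, lysosomes or vesicles, and 16 whose place is shared between compartments or uncertain. A further 3 members (Slc4a1ap, Slc9a3r1 and Slc9a3r2) bear the symbol but encode adaptor or binding proteins, so they are counted and kept apart.

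Polyadenylated RNA was measured by Smart-seq2 in 8 libraries of 15 mouse oocytes each, 2 libraries per group. GV oocytes are fully grown and arrested before meiotic resumption. MII oocytes are mature and received no injection, and the GV and MII oocytes both came from culture. The other groups are MII oocytes that had been injected at the GV stage with RNA encoding BTG4, an adaptor that brings the deadenylase machinery to maternal mRNA: Btg4wt oocytes received the wild-type form, and Btg4tm oocytes a form with 3 neighbouring phosphosites changed to alanine. All groups came from ICR females in which Btg4 was not deleted, so the injected form was present beside the endogenous one. The paper shows both injected forms by immunoblot of oocytes, and reports that they seemed to lower endogenous BTG4. The study set Btg4tm against Btg4wt to ask whether these phosphosites matter for the clearance of maternal RNA.

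Levels are given as scaled TPM, the deposited TPM divided by a median-of-ratios factor between 0.948 and 1.11 per library. TPM are shares of a library, so levels can be set side by side between genes, but read depth and counting error are unknown. Replicate libraries correlated at 0.982 to 0.987 over log2 values. Nothing in the sources says that the 2 libraries of a group came from separate animals, so p-values measure only the spread between these libraries. The level of Btg4 itself does not check the injections. Its scaled TPM were 5178 and 5510.4 in Btg4wt and 3725 and 4068 in Btg4tm, against 5792 and 6002 in uninjected MII, so the names Btg4wt and Btg4tm stand for libraries labelled as such. Oocyte markers were present in every library (15 of 15, summed between 22759 and 33478 scaled TPM). Of 18 markers of cumulus and granulosa cells 12 were missing from part of the tables. The other 6 were Cyp19a1, Nr5a2, Kitl, Inha, Ptgs2 and Lhcgr. Cyp19a1 lay between 15.7 and 26.8 scaled TPM and Nr5a2 between 8.97 and 20.9, while Kitl reached at most 5.86 and Inha 9.83. Ptgs2 and Lhcgr were under 1 scaled TPM in every library. The 6 summed to 35.5 in each GV library, to 46.2 and 49.8 in MII, to between 46.7 and 47.99 in Btg4wt and to between 36.4 and 41.3 in Btg4tm. Inha, the inhibin alpha subunit, was called higher in Btg4tm (log2 fold change over Btg4wt 1.74), and Nr5a2, Kitl and Cyp19a1 were not called. Their part in the results below was not tested.

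Mitochondrial carriers of the Slc25 family sit in the inner membrane and are built from repeated pairs of membrane helices, each repeat with a short signature motif. They link the matrix to the cytosol: ADP enters and ATP leaves, phosphate, citrate, malate and amino acids are exchanged, and cofactors such as NAD are taken in. Plasma membrane carriers supply the oocyte with nutrients and set its ions, volume and pH. The growing oocyte receives part of its amino acids and energy substrates through gap junctions from cumulus cells, and by MII this contact is largely lost. Zinc taken up through SLC39A6 and SLC39A10 is known to be needed for meiotic maturation.

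The family resemblance can be read from the transcripts. In the coding part of the annotated transcript (GENCODE M21, GRCm38), the general carrier signature, proline and an acidic residue followed by a basic residue at fixed spacing, occurred at least 3 times in 13 of the 21 Slc25 members, in 2 copies in 3, once in 4 and not at all in 1. It was absent from 33 of the 44 plasma membrane members and occurred 3 or more times in 1. The ADP/ATP carriers add a signature of 3 arginine and 3 methionine codons, shown here because these 3 genes are among the most abundant members and differ in their response. Each line gives 42 coding bases, 5′ to 3′ on the transcript strand, with the 6 signature codons in capitals.
Slc25a4: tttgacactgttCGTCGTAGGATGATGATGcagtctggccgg
Slc25a5: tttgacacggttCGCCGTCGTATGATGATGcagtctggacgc
Slc25a31: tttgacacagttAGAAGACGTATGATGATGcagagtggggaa

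The stretch of Slc25a4 lies in exon 3 of 4 (codons 235 to 240 in capitals) at chr8:46208405-46208446 on the minus strand. That of Slc25a5 also lies in exon 3 of 4, at chrX:36797828-36797869 on the plus strand. In Slc25a31 the stretch crosses an exon boundary on the plus strand of chr3, between 40722719 and 40724876, and its capitals start at codon 248 in exon 5 of 6. Over these 42 bases Slc25a4 and Slc25a5 share 36, Slc25a5 and Slc25a31 share 31, and Slc25a4 and Slc25a31 share 29. Over the whole coding part the identities are 77.5%, 68.3% and 67.6% in the same order. Slc25a5 shares sequence with further genes as well: 46.6% of the 50-base words of its transcript occur in other annotated transcripts, mostly of Gm5560, and its level is therefore uncertain.

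In GV oocytes the Slc25 members had a median of 42.6 and 36.97 scaled TPM in the 2 libraries, against 13.2 in each for the plasma membrane members. Slc25a5 was the most abundant Slc25 member (474 and 407 in GV), followed by the germ cell ADP/ATP carrier Slc25a31 (193 and 182) and by Slc25a17 (202 and 160.3), a relative that carries nucleotide cofactors in the peroxisome. Among plasma membrane members Slc3a2, the heavy chain shared by several amino acid exchangers, led with 166 and 172, then the zinc importers Slc39a10 (153 and 164) and Slc39a6 (94.4 and 90.1). The highest member of all was Slc30a3, a vesicular zinc transporter, at 526 and 524, followed by Slc25a5 and then by Slc45a3 at 286 and 304; Slc30a3 and Slc45a3 fall outside the rule for named genes and were picked after their values were seen. The threshold itself cut through a continuous range. Just inside it were Slc6a7 (5.15 and 7.64 TPM as deposited), Slc26a9 (5.66 and 8.39) and Slc26a2 (5.69 and 6.37). Just outside were Slc37a3 (5.70 and 4.96), Slc12a9 (4.74 and 4.73) and Slc25a30 (5.11 and 4.70).

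Between the libraries labelled Btg4tm and Btg4wt, 20 of the 108 members were higher and 8 lower in Btg4tm. A gene counts as called when its adjusted p in limma, Benjamini-Hochberg over all 13968 genes tested, is under 0.05 and its change exceeds 2-fold. Over all genes tested 18.1% were called higher and 7.94% lower, and over the 8834 tested genes that also reach 5 TPM in both GV libraries 25.1% and 8.85%. The members' shares, 18.5% and 7.41%, were near the shares of all genes. They were below the shares of genes at 5 TPM or more in GV, the level that all members reach. These differences were not tested. The median log2 fold change of the members was 0.19 (quartiles -0.35 and 0.74), beside 0.01 over all genes tested and 0.08 over those at 5 TPM or more in GV. The split depends on the scaling. With quantile normalization 11 members were called higher and 11 lower, beside 2081 and 1778 of all 13968 genes tested. Scaling to the mitochondrially encoded transcripts, which moves the median of all genes from 0.01 to 0.88, gave 66 higher and 0 lower. Over all genes tested this scaling gave 6089 higher and 69 lower. Directions below are therefore relative to the typical gene of a library. Leaving out Btg4tm replicate 1 gave 5 members lower in place of 8.

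Of the 21 Slc25 members, 4 rose in Btg4tm, 1 fell and 16 did not pass. As shares, 19.05% rose and 4.76% fell, beside 18.1% higher and 7.94% lower over all genes tested. Over genes at 5 TPM or more in GV the shares were 25.1% and 8.85%, and no difference was tested. Among the Slc25 members that rose were the oxoglutarate/malate exchanger Slc25a11, the orphan Slc25a35 and the NAD carrier Slc25a51. The citrate exporter Slc25a1 fell. The rises lay between 1.01 and 1.23 on the log2 scale, and the family's median was 0.23.

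The nucleotide, cofactor and phosphate carriers hold 10 members, of which 2 rose and none fell by the limma test. These are 20% and 0%, beside 18.1% higher and 7.94% lower over all genes tested. Genes at 5 TPM or more in GV gave 25.1% and 8.85%, and no difference was tested. Slc25a51 had scaled TPM of 19.6 and 16.2 in GV, 5.87 and 7.81 in MII, 7.45 and 7.53 in Btg4wt, and 16 and 16.2 in Btg4tm, with a log2 fold change of Btg4tm over Btg4wt of 1.01 ± 0.18 (SE, adjusted p = 0.00199). Its Btg4tm values overlapped those of GV and were above all MII and Btg4wt values. The ADP/ATP carriers differed among themselves. Slc25a5 read 474 and 407 in GV, 282 and 281 in MII, 281 and 255 in Btg4wt, and 467 and 463 in Btg4tm, and its log2 fold change of 0.79 ± 0.10 (SE, adjusted p = 0.000399) passed the p-value threshold but not the 2-fold one. Slc25a4 read 86.5 and 89.2 in GV, 69.2 and 74.7 in MII, 54.4 and 55.2 in Btg4wt, and 84.6 and 71.3 in Btg4tm, with a log2 fold change of 0.50 ± 0.12 (SE, adjusted p = 0.00773), and Btg4tm overlapped uninjected MII. Slc25a31 read 193 and 182 in GV, 184 and 179.7 in MII, 249 and 232 in Btg4wt, and 245 and 255 in Btg4tm; its Btg4tm and Btg4wt values overlapped (log2 fold change 0.06 ± 0.09, SE, adjusted p = 0.651). In both injected groups Slc25a31 was above the uninjected MII and GV libraries, which also differ from them in the genes listed. The phosphate carrier Slc25a3 read 42.6 and 42.9 in GV, 22.4 and 23.5 in MII, 23.8 and 19.9 in Btg4wt, and 34.6 and 35.2 in Btg4tm and had a log2 fold change of 0.66 ± 0.13 (SE, adjusted p = 0.00314), again under 2-fold. Slc25a17 read 202 and 160.3 in GV, 160.3 and 181 in MII, 177 and 149.8 in Btg4wt, and 225 and 242 in Btg4tm, with a log2 fold change of 0.52 ± 0.14 (SE, adjusted p = 0.0163), and its Btg4tm libraries were the highest of all 8.

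Among the 8 members grouped as carriers of carboxylates and amino acids, with the orphan Slc25a48 among them, 1 rose and 1 fell. This is 12.5% in each direction, beside 18.1% higher and 7.94% lower over all genes tested. Genes at 5 TPM or more in GV gave 25.1% and 8.85%, and no difference was tested. Slc25a11, which exchanges oxoglutarate for malate in the malate-aspartate shuttle, lies at chr11:70644196-70647479 on the minus strand. Its scaled TPM were 22.3 and 23.1 in GV, 12.3 and 7.56 in MII, 9.28 and 11.01 in Btg4wt, and 23.5 and 26.6 in Btg4tm, with a log2 fold change of 1.23 ± 0.22 (SE, adjusted p = 0.00186). The GV and Btg4tm libraries stood together at about the same level, and all MII and Btg4wt libraries lay below 12.3. Slc25a13, the aspartate/glutamate exchanger of the same shuttle, went the other way in value: 39.04 and 34.7 in GV, 65.99 and 69.5 in MII, 52.5 and 67.4 in Btg4wt, and 42.6 and 40.7 in Btg4tm, with a log2 fold change of -0.50 ± 0.14 (SE, adjusted p = 0.0176), which is under 2-fold. Slc25a1 read 61.2 and 83.3 in GV, 101 and 119.8 in MII, 152 and 147 in Btg4wt, and 63.2 and 85.2 in Btg4tm. It was highest in Btg4wt, and Btg4tm overlapped GV, at a log2 fold change of -1.01 ± 0.19 (SE, adjusted p = 0.00235). Slc25a48, one of the less studied members, read 111 and 116 in GV, 138 and 133 in MII, 142 and 138 in Btg4wt, and 93.6 and 74.6 in Btg4tm, with a log2 fold change of -0.73 ± 0.12 (SE, adjusted p = 0.0014). The remaining members of the family were the orphan Slc25a35, the uncoupling-protein relative Slc25a14 and the glutathione carrier Slc25a39. Slc25a35 read 32.2 and 30.5 in GV, 8.096 and 10.2 in MII, 14.02 and 10.2 in Btg4wt, and 24.3 and 28.1 in Btg4tm, with a log2 fold change of 1.07 ± 0.19 (SE, adjusted p = 0.00186), and 31.3% of its exon bases lie in exons of other genes, so that its reads can be shared without strand information. Slc25a14 and Slc25a39 were not called (log2 fold changes 0.31 and -0.20).

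Several of these calls sit close to the 2-fold limit. Without Btg4wt replicate 2, 2 Slc25 members rose in place of 4, and Slc25a35 had a log2 fold change of 0.85. Slc25a35 also missed without Btg4tm replicate 2 (0.97), and Slc25a1 without Btg4tm replicate 1 (-0.80) or Btg4wt replicate 1 (-0.99), which leaves no Slc25 fall. Of the named rises, Slc25a51 was under the limit on TPM as deposited (0.99) and with quantile normalization (0.79). Slc25a11 was not called with the length and GC trend removed (0.44), and Slc25a35 neither with quantile normalization (0.86) nor with that trend removed (0.98).

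**Figure D1:**
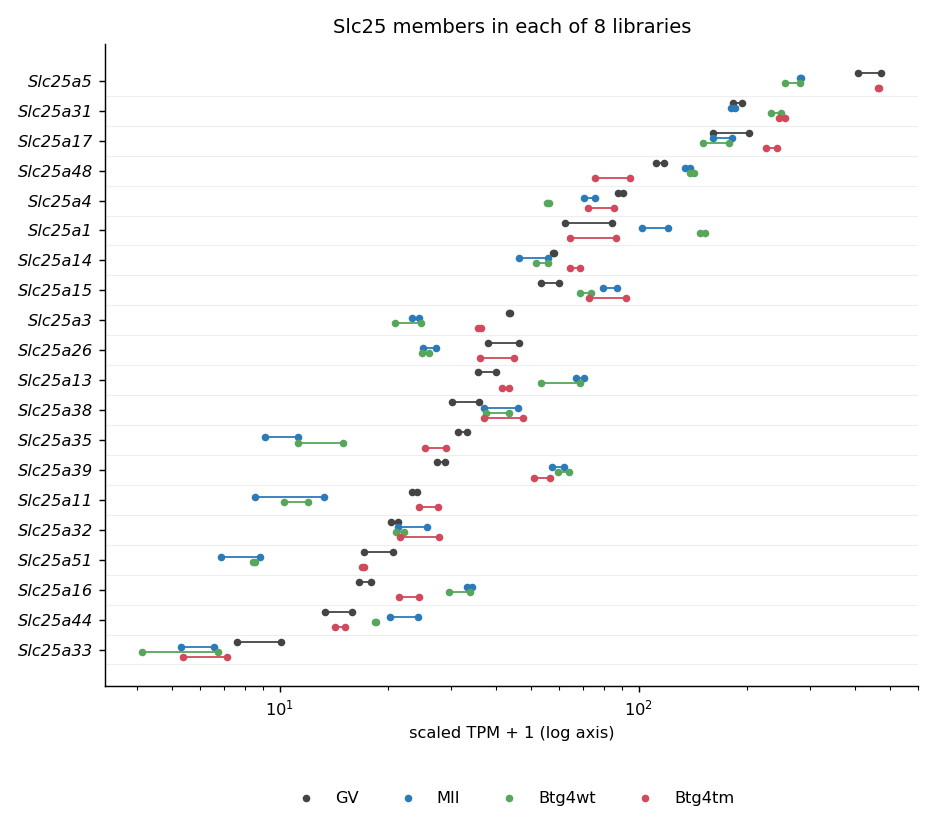
Scaled TPM plus 1 on a log axis for 20 of the 21 Slc25 members in each of the 8 libraries; each dot is 1 library, a line joins the 2 libraries of a group, and genes are ordered by their mean GV level. For Slc25a11, Slc25a35 and Slc25a51 the Btg4tm dots lie to the right of both the MII and the Btg4wt dots, and for Slc25a1 they lie to the left of them.

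The 44 plasma membrane members held 6 that rose in Btg4tm, 6 that fell and 32 that did not pass. This is 13.6% in each direction, beside 18.1% higher and 7.94% lower over all genes tested and 25.1% and 8.85% over those at 5 TPM or more in GV; the difference from these shares was not tested. The rises reached further than those of the Slc25 family, up to a log2 fold change of 3.07 for Slc7a9. The falls were led by Slc6a7, Slc39a10, Slc7a2 and Slc6a9, all amino acid or zinc carriers.

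**Figure D2:**
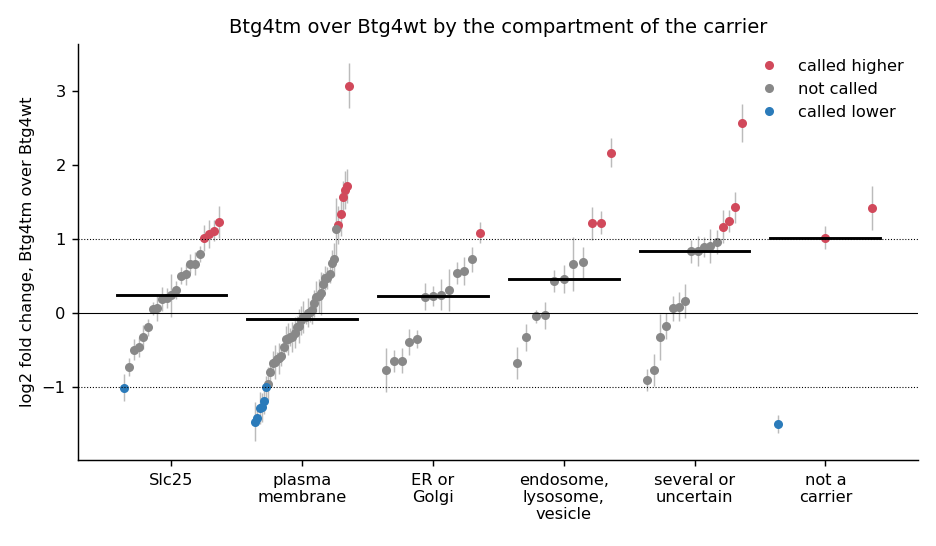
Log2 fold change of Btg4tm over Btg4wt for each of the 108 members, by the compartment of the carrier; dots are genes sorted by value, grey bars are standard errors of the fit, thick lines class medians and dotted lines the 2-fold limits. The Slc25 members span -1.01 to 1.23 and the plasma membrane members -1.47 to 3.07, with medians of 0.23 and -0.08.

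Carriers of amino acids and neurotransmitters at the plasma membrane number 15, of which 2 rose and 4 fell. These are 13.3% and 26.7%, beside 18.1% higher and 7.94% lower over all genes tested. Genes at 5 TPM or more in GV gave 25.1% and 8.85%, and no difference was tested. Slc7a9, the light chain of the cystine and basic amino acid transporter of epithelia, lies at chr7:35448796-35466036 on the plus strand. Its scaled TPM were 15.1 and 9.405 in GV, 0.112 and 0.528 in MII, 0.932 and 0.323 in Btg4wt, and 11.1 and 13.9 in Btg4tm. It was under 1 scaled TPM in all 4 MII and Btg4wt libraries and within the range of GV in Btg4tm, with a log2 fold change on the log2(TPM + 1) scale of 3.07 ± 0.31 (SE, adjusted p = 9.03e-05). Slc7a7, the light chain of a basic amino acid exporter, showed the same order with 6.36 and 6.33 in GV, 0.408 and 0.948 in MII, 0.753 and 1.12 in Btg4wt, and 5.05 and 5.54 in Btg4tm and a log2 fold change of 1.71 ± 0.23 (SE, adjusted p = 0.000461). Both chains pair with a heavy chain; Slc3a2, the partner of the Slc7a7 product, read 166 and 172 in GV, 244 and 248 in MII, 215 and 237 in Btg4wt, and 224 and 211 in Btg4tm and did not pass (log2 fold change -0.06 ± 0.09, SE, adjusted p = 0.644). Slc7a5, a large neutral amino acid exchanger that also pairs with SLC3A2, was low throughout at 6.598 and 6.75 in GV, 4.58 and 4.07 in MII, 7.06 and 5.697 in Btg4wt, and 5.72 and 3.92 in Btg4tm (log2 fold change -0.35 ± 0.21, SE, adjusted p = 0.205).

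The falls in this group held the glycine transporter Slc6a9, which oocytes use to regulate their volume. It read 23.6 and 28.6 in GV, 28.7 and 29.8 in MII, 41.9 and 46.1 in Btg4wt, and 14.2 and 21.6 in Btg4tm, with a log2 fold change of -1.28 ± 0.20 (SE, adjusted p = 0.00089). The Btg4tm libraries were the lowest of all 8 and the Btg4wt libraries the highest. Of its exon bases 30.2% lie in exons of other genes, and without Btg4tm replicate 1 the log2 fold change was -0.99, under the limit. Slc6a7, a proline transporter just inside the 5 TPM threshold, read 4.85 and 6.901 in GV, 7.42 and 5.97 in MII, 10.9 and 10.2 in Btg4wt, and 2.33 and 4.18 in Btg4tm, with a log2 fold change of -1.47 ± 0.26 (SE, adjusted p = 0.00193). Slc7a2, a basic amino acid transporter, read 7.602 and 11.8 in GV, 13.2 and 13.9 in MII, 14.1 and 13.02 in Btg4wt, and 5.33 and 4.598 in Btg4tm, with a log2 fold change of -1.29 ± 0.21 (SE, adjusted p = 0.00125). In both genes all Btg4tm values were below all others, but Slc7a2 was not called with the length and GC trend removed (-0.78). The cystine/glutamate exchanger Slc7a11, which completes the falls, had a log2 fold change of -1.01 ± 0.15 (SE, adjusted p = 0.000678) and lost its call without Btg4wt replicate 1 or Btg4tm replicate 1 and with the length and GC trend removed.

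**Figure D3:**
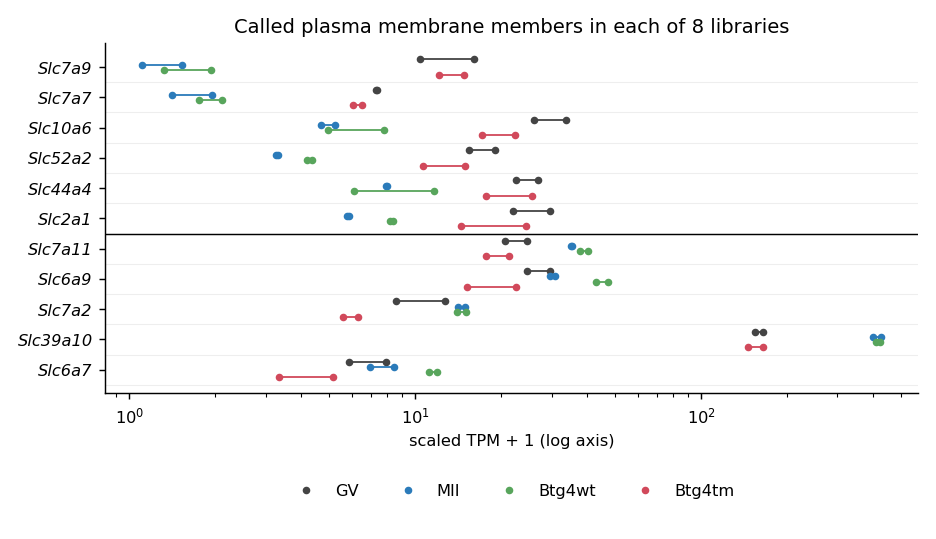
Scaled TPM plus 1 on a log axis for 11 of the 12 called plasma membrane members in each of the 8 libraries, with those higher in Btg4tm above the black line and those lower below it. In the upper 6 genes the MII and Btg4wt dots lie left of the GV and Btg4tm dots, and in the lower 5 the Btg4tm dots lie left of the Btg4wt dots.

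Sugar and monocarboxylate carriers held 4 members, of which 1 rose (25%). That share was 18.1% over all genes tested and 25.1% over those at 5 TPM or more in GV. The member that rose was the glucose transporter Slc2a1. It read 28.6 and 20.9 in GV, 4.89 and 4.79 in MII, 7.19 and 7.36 in Btg4wt, and 23.5 and 13.5 in Btg4tm. The Btg4tm libraries differed widely from each other, yet both lay above all MII and Btg4wt libraries, and the log2 fold change was 1.19 ± 0.26 (SE, adjusted p = 0.00541). Without Btg4tm replicate 1 it was 0.81, with quantile normalization 0.96 and with the length and GC trend removed 0.98, none of them called. The monocarboxylate transporter Slc16a1, a candidate route for pyruvate and lactate, read 10.8 and 13.9 in GV, 13.5 and 11.8 in MII, 12.99 and 12.95 in Btg4wt, and 11.04 and 15.2 in Btg4tm and its groups overlapped (log2 fold change -0.00072 ± 0.20, SE, adjusted p = 0.998).

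The 10 carriers of vitamins, choline and other organic solutes gave 3 rises and no fall by the limma test. These are 30% and 0%, beside 18.1% higher and 7.94% lower over all genes tested. Genes at 5 TPM or more in GV gave 25.1% and 8.85%, and no difference was tested. Slc10a6, a transporter of sulfated steroids, read 32.7 and 25.01 in GV, 4.25 and 3.698 in MII, 6.79 and 3.96 in Btg4wt, and 21.3 and 16.2 in Btg4tm, with a log2 fold change of 1.66 ± 0.26 (SE, adjusted p = 0.000928). The riboflavin transporter Slc52a2 read 14.4 and 18.1 in GV, 2.32 and 2.26 in MII, 3.201 and 3.35 in Btg4wt, and 13.9 and 9.69 in Btg4tm, with a log2 fold change of 1.56 ± 0.21 (SE, adjusted p = 0.000495). Slc44a4, of the choline transporter-like family, read 25.9 and 21.5 in GV, 7.01 and 6.91 in MII, 5.12 and 10.6 in Btg4wt, and 16.6 and 24.5 in Btg4tm, with a log2 fold change of 1.33 ± 0.30 (SE, adjusted p = 0.00682); without Btg4wt replicate 1 it was 0.87. In all 3 genes both Btg4tm libraries were above all MII and Btg4wt libraries. The abundant members of this group were not called. The ascorbate transporter Slc23a2 read 56.1 and 67.4 in GV, 131 and 125 in MII, 128 and 141 in Btg4wt, and 76.9 and 76.03 in Btg4tm (-0.81 ± 0.12, SE, adjusted p = 0.000708, under 2-fold), Slc44a2 read 53.5 and 46.2 in GV, 52.05 and 51.2 in MII, 49.3 and 49.4 in Btg4wt, and 57.5 and 36.4 in Btg4tm (-0.11 ± 0.20, SE, adjusted p = 0.683), and Slc43a3, a nucleobase transporter, read 70.2 and 46.7 in GV, 128 and 139.8 in MII, 102 and 106 in Btg4wt, and 81.4 and 80.7 in Btg4tm (-0.36 ± 0.17, SE, adjusted p = 0.121).

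The 15 carriers of ions and metals gave no rise and 2 falls by the limma test. These are 0% and 13.3%, beside 18.1% higher and 7.94% lower over all genes tested. Genes at 5 TPM or more in GV gave 25.1% and 8.85%, and no difference was tested. Slc39a10, a zinc importer of the plasma membrane, lies at chr1:46807544-46892852 on the minus strand. It read 153 and 164 in GV, 427 and 399 in MII, 421 and 407 in Btg4wt, and 164 and 145 in Btg4tm. The MII and Btg4wt libraries lay between 399 and 427 and the GV and Btg4tm libraries between 145 and 164, with a log2 fold change of Btg4tm over Btg4wt of -1.42 ± 0.10 (SE, adjusted p = 1.63e-05). The related importer Slc39a6 followed the same order over a smaller range, with 94.4 and 90.1 in GV, 121 and 125 in MII, 143 and 138 in Btg4wt, and 92.6 and 88.3 in Btg4tm. Its log2 fold change of -0.63 ± 0.09 (SE, adjusted p = 0.000791) was under 2-fold. The anion carriers just inside the threshold were not called (Slc26a2 0.22, Slc26a9 -0.62 on the log2 scale).

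Set side by side, the mitochondrial family had the higher median change. It was 0.23 for Slc25, between 0.09 and 0.38 over the 4 pairings of a Btg4tm with a Btg4wt library, and -0.08 for the plasma membrane members, between -0.17 and -0.05. By counts, 15 of 21 Slc25 members and 19 of 44 plasma membrane members had a log2 fold change above 0. Over all genes tested this held for 7036 of 13968, and over those at 5 TPM or more in GV for 4684 of 8834. No test of the difference between the classes was run, since members are not replicates, and they were also chosen with results known. Transcript length moved with this difference. The median annotated transcript was 2128 bases for Slc25 and 4063 for the plasma membrane class, and over all genes tested longer transcripts had lower changes (Spearman -0.39 across genes, which are not independent replicates). Within the Slc25 members that correlation was 0.00 and within the plasma membrane members -0.34. With the trend in length and GC content removed, the medians were -0.12 and -0.14, close to each other, and 1 Slc25 member was called higher and 2 lower. The median over all genes in that fit was also -0.12.

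Summed over their members, the classes differed in opposite directions between Btg4tm and Btg4wt. The 21 Slc25 RNAs summed to 1614 and 1511 scaled TPM in GV, 1402 and 1451 in MII, 1504 and 1432 in Btg4wt, and 1718 and 1717 in Btg4tm. The 44 plasma membrane RNAs summed to 1162 and 1145 in GV, 1663 and 1615 in MII, 1597 and 1627 in Btg4wt, and 1231 and 1160 in Btg4tm. GV and Btg4tm were thus below both other groups for the plasma membrane class without overlap. Each sum leaned on 1 gene. Without Slc25a5 the mean Slc25 sum in Btg4tm was 1.04 times that in Btg4wt, in place of 1.17, and without Slc39a10 the plasma membrane ratio was 0.869 in place of 0.742. Under scaling to the mitochondrially encoded transcripts both ratios exceeded 1, at 2.52 and 1.601, so the lower plasma membrane sum of Btg4tm holds only relative to the typical transcript.

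**Figure D4:**
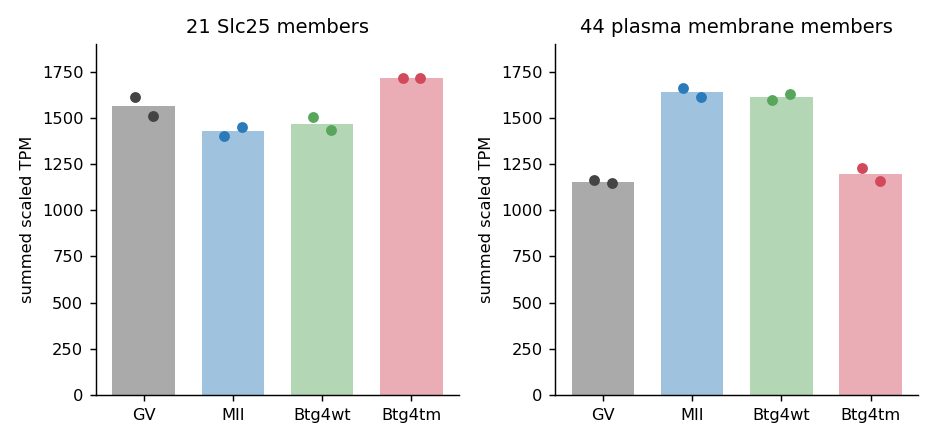
Summed scaled TPM of the 21 Slc25 members (left) and the 44 plasma membrane members (right) by group; dots are the 2 libraries, bars their mean. The Slc25 sums lie between 1402 and 1718 with Btg4tm highest, and the plasma membrane sums are at 1231 or less in GV and Btg4tm and at 1597 or more in MII and Btg4wt.

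Of the 11 members of endosomes, lysosomes and vesicles 3 rose (27.3%) and none fell. Over all genes tested 18.1% were called higher and 7.94% lower, and over those at 5 TPM or more in GV 25.1% and 8.85%. The iron transporter Slc11a2 read 32.4 and 23.98 in GV, 5.73 and 6.48 in MII, 5.08 and 4.57 in Btg4wt, and 28.1 and 22.2 in Btg4tm, with a log2 fold change of 2.16 ± 0.20 (SE, adjusted p = 5.76e-05). Slc38a9, the lysosomal arginine sensor of the mTORC1 pathway, read 15.8 and 14.9 in GV, 4.01 and 4.08 in MII, 4.49 and 4.704 in Btg4wt, and 11.6 and 12.3 in Btg4tm, with a log2 fold change of 1.21 ± 0.16 (SE, adjusted p = 0.000364). Slc15a4, a lysosomal histidine and peptide transporter, read 12.3 and 11.4 in GV, 2.32 and 2.04 in MII, 2.896 and 2.81 in Btg4wt, and 9.87 and 6.304 in Btg4tm (1.21 ± 0.22, SE, adjusted p = 0.00249), and without Btg4tm replicate 1 its log2 fold change was 0.92. All 3 had Btg4tm values above every MII and Btg4wt library. Slc30a3, the most abundant member in GV, read 526 and 524 in GV, 270.3 and 275 in MII, 332 and 351 in Btg4wt, and 332 and 328 in Btg4tm, so that Btg4tm and Btg4wt lay close together (log2 fold change -0.05 ± 0.09, SE, adjusted p = 0.665) and all libraries of the MII stage were below GV. Among the 13 ER or Golgi members, largely nucleotide sugar transporters, 1 rose (7.69%). This was Slc35b3, which imports the sulfate donor into the Golgi, at 52.4 and 42.8 in GV, 49.7 and 48.2 in MII, 28.1 and 23.6 in Btg4wt, and 58.2 and 52.8 in Btg4tm and a log2 fold change of 1.08 ± 0.14 (SE, adjusted p = 0.000409). Btg4wt alone was low, and the other groups lay between 42.8 and 58.2. Without Btg4wt replicate 2 its change was 0.96. With quantile normalization Slc35b3 (0.84), Slc15a4 (0.98) and Slc38a9 (0.97) were not called, nor were Slc35b3 (0.90) and Slc15a4 (0.91) with the length and GC trend removed.

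Of the 16 members of several or uncertain compartments 4 rose (25%, beside 25.1% of genes reaching 5 TPM in GV) and none fell. Their median log2 fold change was 0.83. The largest was Slc5a10, of the sodium/glucose family, at 10.8 and 7.69 in GV, 0.254 and 0 in MII, 0.352 and 0.0522 in Btg4wt, and 5.57 and 6.58 in Btg4tm (2.56 ± 0.25, SE, adjusted p = 8.77e-05). The others, like Slc5a10 named after their values were seen, were Slc23a3 (1.42 on the log2 scale), Slc35f6 (1.24) and Slc35e4 (1.16). Slc35e4 lost its call in 2 of 18 alternatives, quantile normalization among them, and Slc35f6 in 0. Slc23a3, an orphan relative of the ascorbate transporters, read 187 and 161 in GV, 11.9 and 13.99 in MII, 17.8 and 11.97 in Btg4wt, and 46.8 and 35.9 in Btg4tm, with Btg4tm above MII and Btg4wt and far below GV, and lost its call with the length and GC trend removed. Slc45a3 read 286 and 304 in GV, 542 and 488 in MII, 419.6 and 436 in Btg4wt, and 462 and 309 in Btg4tm and was not called (-0.18 ± 0.17, SE, adjusted p = 0.417). Of the members that are not carriers, the scaffold proteins Slc9a3r1 (1.41) and Slc9a3r2 (1.01) were called higher and Slc4a1ap (-1.51) lower. Slc9a3r1 and Slc9a3r2 lost their calls with the length and GC trend removed. In all, Slc9a3r2 lost its call in 5 of 18 alternatives, TPM as deposited and quantile normalization among them.

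The libraries labelled Btg4wt were also compared with those of uninjected MII oocytes. They differ by the labelled injection and by the genes listed, 17384 for each MII library and 16448 for each Btg4wt library. Whether the 2 groups were processed apart is not stated, and such a difference could not be told apart from the injection. No member was called, and no gene among all tested (0.0%). At an unadjusted p under 0.05 there were 15 of 108 members and 1655 of 13968 genes in limma. The members' median log2 fold change was 0.06 (quartiles -0.14 and 0.22), with -0.04 for Slc25 and 0.09 for the plasma membrane class. The members with the widest values were picked after these were seen. Slc14a1, a urea transporter, read 7.92 and 18.5 in GV, 31.8 and 26.5 in MII, 4.72 and 11.2 in Btg4wt, and 18.2 and 16.5 in Btg4tm and had a log2 fold change of Btg4wt over MII of -1.85 ± 0.42 (SE, adjusted p = 0.199), on replicates that differed by more than 2-fold in GV and in Btg4wt. Slc10a3 had 1.04 ± 0.16 (SE, adjusted p = 0.12) and Slc35b3 -0.90 ± 0.14 (SE, adjusted p = 0.12).

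The difference between MII and GV uses the GV libraries that chose the members, and it is given as a description without a test. In MII, 27 of 108 members were over 2-fold lower than in GV and 12 over 2-fold higher. The shares over all genes tested were 24.4% and 12.8%, and over genes with at least 5 TPM in both GV libraries 31.5% and 15.6%. Slc25 had 4 of 21 lower and 1 higher, and the plasma membrane class 8 of 44 lower and 8 higher. Medians were -0.08 and 0.07 on the log2 scale. The lowest plasma membrane members were Slc7a9 (-3.31), Slc10a6 (-2.58) and Slc52a2 (-2.38), and the highest were Slc39a10 (1.38) and Slc44a1 (1.37). In the Slc25 family the values ran from -1.68 for Slc25a35 to 1.08 for Slc25a39.

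Carriers with lower RNA in MII than in GV were largely those with higher RNA in Btg4tm than in Btg4wt, a comparison that shares no library with the first. Of the 27 members over 2-fold lower in MII, 18 were called higher in Btg4tm and 0 lower. All 4 such Slc25 members were called higher, and 6 of 8 plasma membrane members. The exceptions in the latter class were Slc2a12 and Slc9a3 (log2 fold changes of 0.26 and 0.22 in Btg4tm over Btg4wt). Among all genes tested the same share was 69.1%, and among those at 5 TPM or more in GV 76.4%, against 66.7% for the members. The members' share was near that of all genes and below that of genes at 5 TPM or more in GV, which was not tested. The 8 members called lower in Btg4tm all had higher values in MII than in GV, 1 of them over 2-fold. Most called-lower genes shared this direction, carriers or not. Among the 1109 called lower in the whole set, 1066 had an MII change above 0, 467 of them over 2-fold. With the 5 TPM limit in GV the counts were 761 of 782, with 383 over 2-fold. No difference of the members from these counts was tested. Across members the Spearman correlation of both changes was -0.77, beside -0.81 across all genes tested. Across genes at 5 TPM or more in GV it was -0.87, within Slc25 -0.91 and within the plasma membrane class -0.71. Genes are not independent replicates, and no difference was tested.

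**Figure D5:**
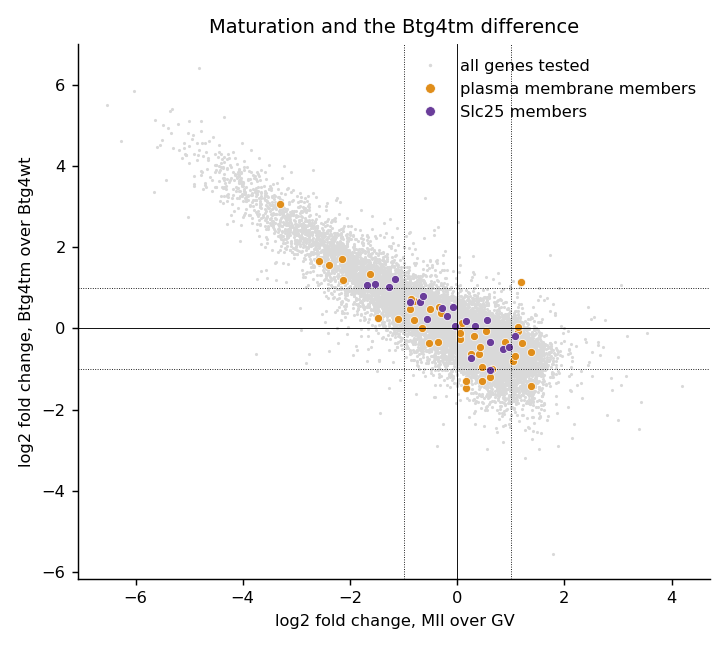
Log2 fold change of MII over GV (horizontal) against that of Btg4tm over Btg4wt (vertical) for the Slc25 and plasma membrane members over all 13968 genes tested in grey; dotted lines mark 2-fold. The members lie within the grey band, with Slc7a9 at -3.31 and 3.07 at the upper left.

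The ends of the transcripts were searched for the cytoplasmic polyadenylation element, a U-rich motif that recruits CPEB and lengthens poly(A) tails in maturing oocytes. The letters searched were TTTTAT and TTTTAAT in the last 100 bases of the annotated 3′ UTR, on the transcript strand only. A match can overlap the poly(A) signal, AATAAA or ATTAAA, which was the case in 3 members. Of 104 members with a usable end 25 held the motif, beside 19.7% of all 11647 annotated genes with one. It was found in 7 of 21 Slc25 members and in 8 of 42 plasma membrane members. By call, it stood in 3 of 20 members that rose, in 1 of 8 that fell and in 21 of 76 that were not called. Over all genes tested the shares were 10.4% of called higher, 22.04% of called lower and 21.8% of the rest. The 4 called members with the motif are shown, with the motif in capitals, as transcript sequence 5′ to 3′ of at most 30 bases that ends early where the annotated transcript ends.
Slc25a11: gtcacctactggTTTTATgaaaa
Slc15a4: tgttttgtataaTTTTATaaaagcttctca
Slc44a4: taaagactaataTTTTATattcttga
Slc39a10: agtggtgtgtcaTTTTATatatgttcctaa

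They lie at chr11:70644196-70644218 (minus strand), chr5:127595672-127595701 (minus), chr17:34930331-34930356 (plus) and chr1:46807585-46807614 (minus) in GRCm38. The first 3 belong to RNAs that rose in Btg4tm and the last to the zinc importer that fell. In Slc25a11 the motif starts 11 bases before the annotated end, against 59 in Slc39a10. A match describes the annotated sequence only, and the end used in the oocyte was not measured.

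Transport genes outside the Slc symbols gave a frame for both classes. Of 25 other genes of mitochondrial transport 18 were tested, and 6 were called higher and 2 lower in Btg4tm. The outer-membrane channel Vdac3 read 208 and 196 in GV, 58.4 and 57.2 in MII, 64.9 and 56.5 in Btg4wt, and 185 and 184 in Btg4tm (1.59, adjusted p = 1.14e-05), and the sideroflexin Sfxn4 read 132 and 121 in GV, 12.3 and 19.3 in MII, 17.3 and 20.6 in Btg4wt, and 93.9 and 108 in Btg4tm (2.35, adjusted p = 3.96e-05). The pore of the calcium uniporter Mcu went the other way with 55.97 and 68.6 in GV, 205 and 168 in MII, 164 and 195 in Btg4wt, and 30.02 and 29.2 in Btg4tm (-2.56, adjusted p = 6.20e-06), while its small subunit Smdt1 was called higher (1.64 on the log2 scale). The same direction therefore did not hold within 1 complex. Of 20 other plasma membrane transport genes 14 were tested, with 0 called higher and 3 lower, among them the exporter Abcc4 (-1.07). Medians of these lists were -0.04 and -0.49. Over all genes tested 18.1% were called higher and 7.94% lower, and no difference of the lists from those shares was tested. These lists were set with earlier results of the data known, and the genes named from them were picked after their values were seen.

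Some carriers often named for the oocyte are not among the members. Of 26 such genes 23 were listed in all libraries. Slc25a20, the carnitine carrier, was at 4.11 and 4.97 TPM as deposited in GV and Slc25a12, the other aspartate/glutamate exchanger, at 3.46 and 3.63. Slc30a1 was at 4.46 and 4.66, and Slc2a3 and Slc16a7 at 1.14 or less. Over the 21 that were tested, members or not, 3 were called higher in Btg4tm (Slc2a1, Slc25a11 and Slc25a51). Another 3 were called lower (Slc6a9 and Slc39a10 among them), and the median was -0.08. The shares over all genes tested were 18.1% higher and 7.94% lower.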

How the data were processed

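Processed values were used as deposited. The authors trimmed reads with Trim Galore 0.6.10, aligned them with HISAT2 2.2.0 to GRCm38 (GENCODE vM25) and counted exons with featureCounts 2.0.6 without strand, dropping low-quality and secondary alignments, so near-identical genes lose reads. They deposited TPM per gene symbol. The TPM summed to between 996199 and 998615 per library, keep no depth, and rest on priming with oligo(dT), so a change in poly(A) tail length cannot be told apart from a change in amount.

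From the deposited TPM, the 15962 genes found in every table were put on one scale (median of ratios) and fitted as log2(TPM + 1) with limma 3.58.1 in R 4.3.3 (lmFit, eBayes with trend, all 8 libraries, 1 coefficient per group). Testing covered 13968 genes, those reaching 1 TPM in 2 or more libraries, with Benjamini-Hochberg adjustment. A call needed adjusted p below 0.05 with a log2 fold change beyond 1 in size. On simulated data made from these libraries, 192 of 200 genes changed by a log2 fold of 2 were recovered for Btg4tm over Btg4wt. In the same run 3 unchanged genes were called. The changed genes were drawn from the more abundant ones, and their change exceeded every Slc25 rise. Recovery near the 2-fold limit was therefore not measured. Annotation came from GENCODE M21 on the same build and matched 107 members by symbol.

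The members, compartments and lists were chosen with earlier results of these data known. Named genes were the 6 highest in GV, the 6 largest rises and 4 largest falls of the Slc25 and plasma membrane classes, the 3 largest rises and 2 largest falls of the ER or Golgi and endosomal classes, up to 6 called in Btg4wt over MII, a list of carriers known in oocytes (26 genes), and the 3 nearest genes on each side of the threshold. Other members named are marked or stand as counts of their class. Some genes of the lists are counted but not reported here by name. Alternatives were other scalings, pseudocounts and filters, a fit of 4 libraries, a replicate block, removal of a length and GC trend, and leaving out each library.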

Additional observations from a re-analysis of the deposited data

Results flagged for a closer look

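Slc genes listed for GV and MII but not for the injected groups entered no comparison. Among them Slc22a14 was at 2.37 and 1.70 TPM in the 2 GV libraries and Slc47a2 at 1.35 and 2.63, the only 2 of the 26 partly listed Slc genes with at least 1 TPM in both libraries of a group. They were flagged as signal in data that the comparisons do not use. With 2 libraries per group no library could be tested as standing apart from its group.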

How the results depend on the processing

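The scaling had the largest effect. Scaling to the mitochondrially encoded transcripts gave 15 Slc25 members higher and 0 lower in Btg4tm over Btg4wt, 21 plasma membrane members higher and 0 lower, 66 members higher and 0 lower in all, and class medians of 1.27 and 0.95. It also gave 1 member called in Btg4wt over MII, and turned the log2 fold changes of Slc16a1 to 1.0, Slc25a1 to 0.0635 and Slc3a2 to 1.02. Quantile normalization gave 1 Slc25 member and 11 members in all called higher, with medians of 0.0251 for Slc25 and -0.30 for the plasma membrane class. With the length and GC trend removed, 1 Slc25 member was called higher and 2 lower, and the Slc25 median was -0.12. In that fit 3 plasma membrane members were called lower and 13 members in all higher. Medians over all genes were 0.88 with scaling to the mitochondrially encoded transcripts, -0.18 with quantile normalization and -0.12 with the trend removed. Testing every Slc gene whatever its GV level gave 2 Slc25 genes lower and 10 plasma membrane genes higher, with an Slc25 median of 0.0584.

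Leaving out 1 library at a time gave 2 to 4 Slc25 members higher and 0 to 1 lower, 5 to 7 plasma membrane members higher and 4 to 7 lower, and 17 to 21 members higher and 5 to 11 lower in all. The medians ranged from 0.22 to 0.36 for Slc25 and from -0.15 to -0.0523 for the plasma membrane class. The count of 5 came without Btg4tm replicate 1. A lone library was assumed to vary like the other groups. No member was called in Btg4wt over MII in any of these fits.

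With the replicate block 4 Slc25 members were called higher and 1 lower, 7 plasma membrane members higher and 6 lower, and 21 and 8 in all. The numbers share only a label: the correlation of replicate differences between groups lay between -0.05 and 0.06. All 28 called members kept their call with the block, a pseudocount of 0.1, no filter, the stricter filter, the 4 libraries alone and eBayes without trend. A choice added after the data were seen, keeping the 93 members with few shared reads, left 17 higher and 7 lower. Of 178 class values under these alternatives 152 kept within the spread or within 1.5 times the count, and of 648 single-gene values 607 kept direction and side of the threshold, 31 lost the call, 7 gained one and 3 turned. The cause of each difference was not tested. Precision rests on 2 libraries per group, TPM hold no depth, and absolute RNA per oocyte was not measured.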
